A study of Caenorhabditis elegans with 2 samples.

Results

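Small nucleolar RNA (snoRNA) genes that lie inside protein-coding host genes were described in ChIP-seq (sequencing of DNA precipitated with a chromatin protein) of HLH-12 from Caenorhabditis elegans. This transcription factor of the basic helix-loop-helix family is known for its role in distal tip cell migration. A snoRNA gene was taken as a member where the Ensembl annotation of WBcel235, the assembly that ce11 names, placed it wholly within a protein-coding gene on the same strand. Of 346 nuclear snoRNA genes, 183 met this rule, in 159 distinct host genes, and 163 had no same-strand host. The rule used no measured value. For each member the highest signal of any peak with its summit within 200 bp of the gene was taken from each deposited ce11 list.

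The series held 1 group of 2 biological replicates of strain OP538, a line with the allele unc-119(tm4063) on III and the transgene wgIs538, which expresses HLH-12 fused at its C-terminus to a GFP-FLAG tag. Worms were whole hermaphrodite young adults, taken 64 h after synchronization as starved L1 larvae, and chromatin was sonicated and precipitated with an antibody against GFP. Both replicates carry the tag and the unc-119 allele, no worms without the tag were analysed here, and a whole-animal list cannot tell in which cells a signal arose. With 1 group there is no comparison between conditions and no test, so all shares and medians below are descriptions of these lists.

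SnoRNAs guide the chemical modification of other RNAs, chiefly ribosomal RNA. Those with a C box and a D box guide 2′-O-methylation, and those with an H box and an ACA box guide pseudouridylation. In animals many snoRNAs are cut out of the introns of host transcripts made by RNA polymerase II, while others are transcribed from promoters of their own. Genes of RNA polymerase III, such as those of tRNAs, carry internal promoter letters called the A box and the B box, which transcription factor TFIIIC binds. snRNA genes instead carry a promoter element upstream of their start.

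The flanks of the snoRNA genes with the highest signal are shown first, because they carried letters that most members lacked. Each run holds the 100 bases before the 5′ end of the snoRNA gene and the first 20 bases of the gene, read on the snoRNA strand from the RefSeq genome of WBcel235 (ce11). Capitals mark matches to an A box, to a B box written GTTCNANNC, or to a spaced element made of AACCCG and, 5 bases on, TGTC. The A box was written TRGYNNANNGG or TRGYNNANNNGG, where R is A or G, Y is C or T and N is any base. These letters were found by reading the flanks of high-signal members, so their presence there is a description. ZK994.7, F01D5.12 and C16D9.11 carried the spaced element:
ZK994.7 (chrV:8500479-8500598, plus strand): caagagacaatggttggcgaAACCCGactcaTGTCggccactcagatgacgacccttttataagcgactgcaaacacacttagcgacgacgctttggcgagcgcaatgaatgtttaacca
F01D5.12 (chrII:14018422-14018541, minus strand): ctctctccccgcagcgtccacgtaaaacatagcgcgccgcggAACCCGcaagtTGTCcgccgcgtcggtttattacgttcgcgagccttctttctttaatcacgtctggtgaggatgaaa
C16D9.11 (chrV:8228950-8229069, minus strand): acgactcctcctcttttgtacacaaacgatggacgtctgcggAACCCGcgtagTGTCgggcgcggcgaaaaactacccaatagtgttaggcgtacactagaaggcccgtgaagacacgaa

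F55A11.10, F11A10.9, M106.6 and T24H7.6 carried an A box followed by a B box that ended just before the snoRNA 5′ end:
F55A11.10 (chrV:11782892-11783011, plus strand): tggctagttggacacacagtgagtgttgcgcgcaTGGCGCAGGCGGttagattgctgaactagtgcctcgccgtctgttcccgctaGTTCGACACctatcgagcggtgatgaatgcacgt
F11A10.9 (chrIV:12086609-12086728, plus strand): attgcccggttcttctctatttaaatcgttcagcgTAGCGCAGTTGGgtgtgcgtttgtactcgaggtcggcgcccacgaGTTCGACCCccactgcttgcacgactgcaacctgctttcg
M106.6 (chrII:10840217-10840336, plus strand): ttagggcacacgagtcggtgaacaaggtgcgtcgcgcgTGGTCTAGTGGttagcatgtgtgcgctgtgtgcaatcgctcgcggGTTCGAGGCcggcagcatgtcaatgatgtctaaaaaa
T24H7.6 (chrII:6248617-6248736, plus strand): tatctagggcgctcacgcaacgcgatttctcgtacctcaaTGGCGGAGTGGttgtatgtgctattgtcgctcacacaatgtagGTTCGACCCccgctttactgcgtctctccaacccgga
F38E11.14, F19H8.6 and C14C10.8 carried an A box at a similar place but no exact B box:
F38E11.14 (chrIV:9477680-9477799, minus strand): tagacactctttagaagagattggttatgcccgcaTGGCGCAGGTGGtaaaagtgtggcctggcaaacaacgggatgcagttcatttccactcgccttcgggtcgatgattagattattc
F19H8.6 (chrII:14617043-14617162, plus strand): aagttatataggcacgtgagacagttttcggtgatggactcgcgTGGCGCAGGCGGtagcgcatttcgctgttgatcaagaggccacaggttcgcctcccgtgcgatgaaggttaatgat
C14C10.8 (chrV:12596958-12597077, minus strand): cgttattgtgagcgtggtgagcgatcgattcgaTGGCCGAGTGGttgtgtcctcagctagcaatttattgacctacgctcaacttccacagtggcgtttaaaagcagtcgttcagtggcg
R166.7, with both boxes, and F54F11.6, with the spaced element, are shown because no pooled summit lay within 200 bp of them:
R166.7 (chrII:10545310-10545429, minus strand): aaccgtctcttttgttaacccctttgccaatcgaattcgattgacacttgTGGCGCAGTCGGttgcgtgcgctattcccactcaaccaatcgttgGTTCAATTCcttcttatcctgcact
F54F11.6 (chrII:13521201-13521320, plus strand): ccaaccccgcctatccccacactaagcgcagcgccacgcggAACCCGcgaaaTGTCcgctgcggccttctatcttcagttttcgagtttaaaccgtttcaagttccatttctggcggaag
C51F7.4, given as its whole gene, is annotated as a snoRNA gene and held the boxes within itself:
C51F7.4 (chrV:12303599-12303693, plus strand): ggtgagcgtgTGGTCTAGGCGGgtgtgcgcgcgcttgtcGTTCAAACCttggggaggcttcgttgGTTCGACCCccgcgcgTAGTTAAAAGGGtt

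Of the 183 members, 43 (23.5%) had a summit within 200 bp in the list called on both replicates together (the pooled list). In 41264 windows of 128 bp, the median length of a member, at the middle of introns with no small RNA gene, the share was 3.39%. Among snoRNA genes without a same-strand host it was 31.3%. In the stricter list, filtered by irreproducible discovery rate (IDR, which scores how alike peaks rank in repeated lists), 14 members (7.65%) had a summit, against 0.0267% of the intron windows and 13.5% of the snoRNA genes without a host. Both shares of the hosted genes thus lay between those of introns and of unhosted snoRNA genes, and the differences were not tested.

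The replicate lists, which reach lower signals, gave a summit at 59 members (32.2%) in replicate 1 and at 63 (34.4%) in replicate 2. The share of intron windows was 10.5% in replicate 1 and 11.8% in replicate 2. For snoRNA genes without a host it was 36.2% in replicate 1 and 38% in replicate 2. A summit in both replicate lists was found at 36 members (19.7%), in replicate 1 alone at 23, in replicate 2 alone at 27 and in neither at 97. Of the 43 members with a pooled summit, 34 also had a summit in both replicate lists.

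Signal is the value that the authors' peak caller gave each peak. Its scaling was not given in the sources used here and the read depth is unknown. The lowest nuclear value was 26.3 in the pooled list, 12.1 in replicate 1 and 10.1 in replicate 2, so a member without a summit had no listed value rather than a signal of 0. The pooled value lay close to the sum of the replicate values, with a median ratio of 0.974 over members. The 43 members with a pooled summit ranged from 26.7 to 245.4 with a median of 50.3, beside 30.6 over all 6661 nuclear pooled peaks and 51.2 at the 51 unhosted snoRNA genes with a summit. They rested on 39 distinct summits, since neighbouring snoRNA genes in frm-7, top-2 and rps-29 shared a summit.

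**Figure D1:**
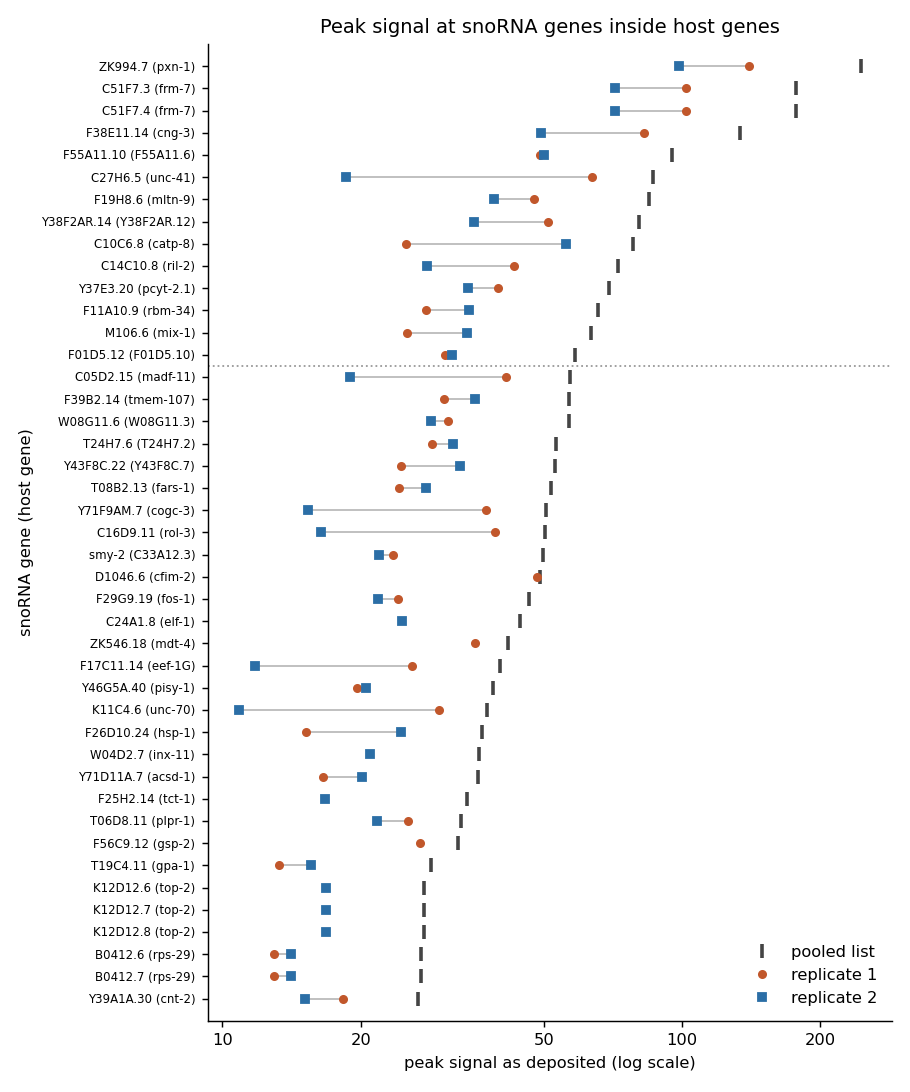
Peak signal as deposited (log scale) at the 43 hosted snoRNA genes with a pooled summit, 1 gene per line with its host in brackets: bars give the pooled list, circles replicate 1, squares replicate 2, and a grey line joins the replicates. The dotted line separates the 14 genes with an IDR summit, from 58.5 up, from the rest, and a missing circle or square means that the replicate list had no summit there.

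The strongest member was ZK994.7 (chrV:8500579-8500645, plus strand), in an intron of pxn-1, which encodes a peroxidasin. Its signal was 140.1 in replicate 1 and 98.6 in replicate 2 (119 ± 29.3, SD, n = 2), rank 2 in the nuclear list of each replicate and rank 1 in the pooled list. The summit lay 25 bp before the snoRNA 5′ end, and 5690 bp of pxn-1 preceded the snoRNA gene.

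C51F7.3 (chrV:12303708-12303783) and C51F7.4 (chrV:12303599-12303693) lie next to each other in frm-7, a gene for a FERM domain protein, and shared a summit. It had 102 in replicate 1 and 71.5 in replicate 2 (86.8 ± 21.7, SD, n = 2), and 177 in the pooled list. The summit lay 55 bp before the 5′ end of C51F7.3 and 54 bp into C51F7.4, between the A box and the end of that gene. C51F7.3 held the letters of both C and D boxes, while C51F7.4 held neither these nor an ACA box and overlapped an annotated exon. Which of the pair the summit belongs to cannot be told apart.

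F38E11.14 (chrIV:9477629-9477699, minus strand), in the cyclic nucleotide-binding gene cng-3, had 82.6 in replicate 1 and 49.3 in replicate 2 (65.95 ± 23.6, SD, n = 2). F55A11.10 (chrV:11782992-11783082, plus strand), in F55A11.6, which encodes a protein with a glutathione S-transferase domain, had 49.0 and 50.1 in replicates 1 and 2 (49.6 ± 0.750, SD, n = 2). Replicate 1 was the higher for the first of these, and both replicates gave nearly the same value for the other. In both genes the replicate summits lay within a few bases of each other, at 44 and 42 bp before the 5′ end of F38E11.14 and at 0 and 6 bp before that of F55A11.10.

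Replicates differed most at C27H6.5 in unc-41, which encodes a stoned B-like protein of synaptic vesicle recycling. Its signal was 63.8 in replicate 1 and 18.6 in replicate 2 (41.2 ± 32.0, SD, n = 2), rank 27 in the first list but rank 2399 in the other. How far each replicate bore on its place in the IDR list was not tested. C10C6.8 in catp-8, an ATPase gene, differed the other way, with 25.03 in replicate 1 and 55.8 in replicate 2 (40.4 ± 21.8, SD, n = 2). At these 2 members the spread between replicates was large beside the mean.

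The other members in the IDR list had replicate means between 29.6 and 43.3. F19H8.6 in mltn-9 had 47.6 in replicate 1 and 39.1 in replicate 2 (43.3 ± 6.02, SD, n = 2). Y38F2AR.14 in Y38F2AR.12, a 5-oxoprolinase gene, had 51.2 and 35.3 in replicates 1 and 2 (43.2 ± 11.2, SD, n = 2). C14C10.8 in ril-2 (RNAi-induced longevity) had 42.996 and 27.9 in replicates 1 and 2 (35.5 ± 10.7, SD, n = 2). These means differed from each other by less than the larger of their SDs.

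Y37E3.20 in pcyt-2.1, an enzyme gene of phosphatidylethanolamine synthesis, had 39.8 in replicate 1 and 34.2 in replicate 2 (37.0 ± 3.94, SD, n = 2). F11A10.9 in rbm-34, an RNA-binding protein gene, had 27.7 and 34.4 in replicates 1 and 2 (31.1 ± 4.73, SD, n = 2). M106.6 in mix-1, a condensin subunit gene, had 25.2 and 34.0 in replicates 1 and 2 (29.6 ± 6.23, SD, n = 2). Replicate 2 was the higher at both of the latter. F01D5.12 in F01D5.10, a carbohydrate sulfotransferase gene, had 30.6 and 31.6 in replicates 1 and 2 (31.1 ± 0.763, SD, n = 2), but its replicate summits lay far apart, 59 and 229 bp after the 5′ end.

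Just below the IDR list, whose lowest nuclear value was 57.3, pooled signals ran from 56.9 to 52.0 over the next 6 members. These were C05D2.15 in madf-11, F39B2.14 in tmem-107, W08G11.6 in W08G11.3, T24H7.6 in T24H7.2 (hypoxia up-regulated 1), Y43F8C.22 in Y43F8C.7, a gene for a subunit of the endoplasmic reticulum membrane complex, and T08B2.13 in fars-1, a phenylalanine-tRNA ligase gene. Their replicate means ran from 25.9 ± 2.49 at T08B2.13 to 32.9 ± 3.56 at F39B2.14 (SD, n = 2 each). They overlapped the replicate means of the lowest IDR members. The replicates of C05D2.15 (30.2 ± 15.8, SD, n = 2) differed far more than those of F01D5.12, the lowest IDR member at 58.5 in the pooled list.

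At the lower end, Y39A1A.30 in cnt-2 had a pooled signal of 26.7, with 18.3 in replicate 1 and 15.2 in replicate 2 (16.7 ± 2.24, SD, n = 2). B0412.6 and B0412.7 in the ribosomal protein gene rps-29 shared a pooled summit of 27.1. Among members with no pooled summit, 2 had a summit in both replicate lists. W06A7.12 in ret-1 had 14.9 and 10.4 in replicates 1 and 2 (12.6 ± 3.21, SD, n = 2), and W02B9.3 in hmr-1, the cadherin gene, had 13.6 and 11.2 in replicates 1 and 2 (12.4 ± 1.72, SD, n = 2). The replicate summits of W02B9.3 lay on either side of the gene, 184 bp before and 131 bp after its 5′ end.

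Over the 34 members with a pooled summit and a summit in both replicate lists, the median SD between replicates was 5.35. The SD among the means of these members was 23.1. Over all 36 members with a summit in both replicate lists, replicate 1 was higher at 21. Spearman's rho between the replicate signals was 0.63, and Pearson's r of their log2 values was 0.72, as a description over members that share the same libraries and, in part, the same summit. Over the 43 unhosted snoRNA genes with both values, rho was 0.77 and r 0.78. The SD of 23.1 is carried by ZK994.7, the frm-7 pair, whose shared summit counts for both genes, and F38E11.14. The other means among the 34 ran from 13.5 to 49.6.

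Pooled summits lay mostly near the 5′ end of the snoRNA genes. The median place of the 43 pooled summits was -7 bp relative to the 5′ end (negative is upstream), with quartiles at -47.5 and 80.5 bp. Of these summits 23 lay upstream of the gene, 12 inside it and 8 beyond its 3′ end. Within 75 bp of the 5′ end, on either side, lay 28 of the 43 pooled summits and all 14 of the IDR list, of which 11 were upstream and 3 inside the gene. The replicate lists were looser. In replicate 1 the median place was 9 bp, with quartiles at -46.5 and 124.5 bp, 30 of 59 summits lay within 75 bp of the 5′ end and 12 lay beyond the 3′ end. In replicate 2 the median was 20 bp, with quartiles at -44.5 and 114 bp, 33 of 63 summits lay within 75 bp and 15 beyond the 3′ end.

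**Figure D2:**
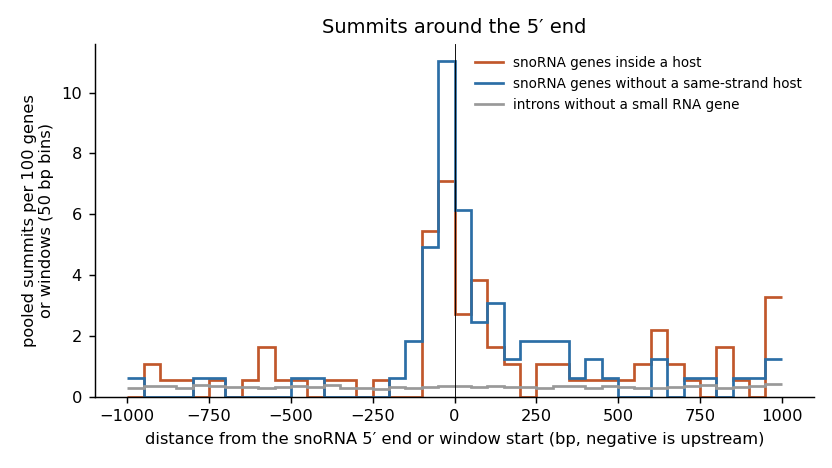
Pooled summits per 100 genes or windows in bins of 50 bp (vertical axis) against the distance from the snoRNA 5′ end, or from the start of an intron window, in bp, negative upstream (horizontal axis). Lines stand for hosted snoRNA genes, snoRNA genes without a same-strand host and introns without a small RNA gene, and both snoRNA lines are highest in the 50 bp before the 5′ end (7.10 per 100 hosted genes). In the 50 bp after it the hosted line is at 2.73, below the bins on either side.

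The replicate lists placed their summits close together at the strong members. In 10 of the 14 IDR members the replicate summits lay within 50 bp of each other, with a median distance of 11.5 bp. Over the 34 members with a pooled summit and both replicate values, 17 did so and the median distance was 48 bp. Summits of low signal were spread more widely, out to 355 bp after the 5′ end at F25H2.14 in tct-1, where the summit lay beyond the snoRNA 3′ end.

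**Figure D3:**
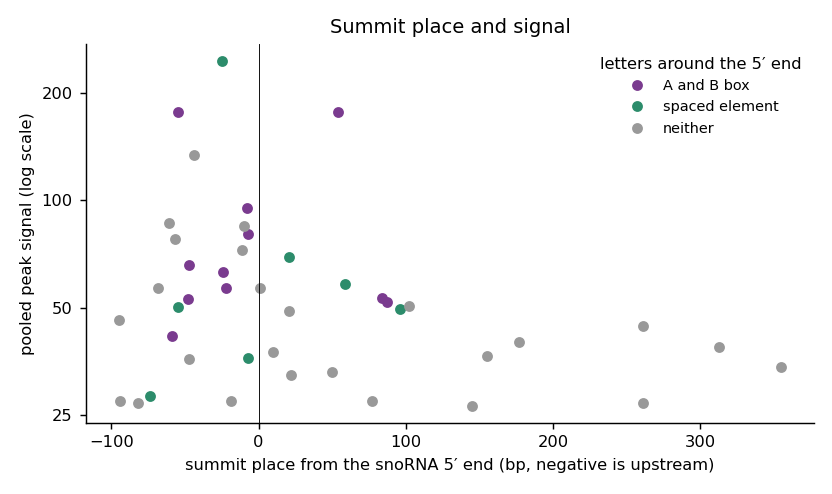
Pooled peak signal (log scale) against the place of the summit from the snoRNA 5′ end in bp, negative upstream, for the 43 hosted snoRNA genes with a pooled summit, coloured by the letters found from 150 bases before to 50 bases after the 5′ end. All summits with a signal of 57.3 or more lie within 75 bp of the 5′ end, and all summits more than 100 bp after it are at 50.7 or less.

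The promoter letters were then counted over all members, in a window from 150 bases before to 50 bases after the 5′ end. An A box followed after 20 to 80 bases by a B box was found at 12 of 183 members (6.56%), beside 9.82% of unhosted snoRNA genes and 0.150% of the intron windows. The C51F7.3 and C51F7.4 windows held the same boxes, so these were 11 distinct pairs. A pooled summit lay at 11 of the 12, an IDR summit at 6, and both replicate lists had a summit at 10. Of the 62 intron windows with both boxes, 11.3% had a pooled summit. tRNA genes, whose boxes lie inside the gene, held the same pair in their first 100 bases in 86.9% of 612 genes, and 60.6% of tRNA genes had a pooled summit.

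Pooled signals of the 11 members with both boxes ran from 41.8 at ZK546.18 in mdt-4 to 177 at the frm-7 pair, with a median of 63.2. The A box started at a median of -60 bases and the B box at a median of -14 bases from the snoRNA 5′ end, 45 bases apart. The pooled summit lay at a median of 43 bp from the start of the A box and -2 bp from that of the B box, and 8 of the 11 summits lay from the A box to 20 bases after the start of the B box. R166.7 in mnk-1 was the member with both boxes and no pooled summit. It had no summit in replicate 1 and a summit of 13.9 in replicate 2, 137 bp after its 5′ end.

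The spaced element was found at 8 members (4.37%), beside 9.82% of unhosted snoRNA genes, 0.150% of intron windows and 22.5% of the 129 snRNA genes. No hosted gene held it on the reverse strand (0 of 183), and it started from -80 to -58 bases from the 5′ end, with a median of -58.5. Of the 62 intron windows with the element 12.9% had a pooled summit, and of the 29 snRNA genes with it 55.2%. Among the members a pooled summit lay at 7 of the 8, an IDR summit at 3 and a summit in both replicate lists at 6. Pooled signals ran from 28.4 at T19C4.11 in gpa-1, a G protein alpha subunit gene, to 245.4 at ZK994.7, with a median of 50.3. At C16D9.11 in rol-3 the replicates differed, with 39.2 in replicate 1 and 16.4 in replicate 2 (27.8 ± 16.2, SD, n = 2). F54F11.6 in sre-45 had no pooled summit and 12.9 in replicate 1 alone.

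Among unhosted snoRNA genes the element stood beside 9 pooled summits in 16 genes and 0 IDR summits, with a highest pooled signal of 53.3. The A and B boxes stood beside 12 pooled and 10 IDR summits in 16 genes, with a median pooled signal of 85.0. Hosted genes with the element thus reached higher values than unhosted genes with it, through ZK994.7, Y37E3.20 at 69.3 and F01D5.12 at 58.5. This difference was not tested.

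**Figure D4:**
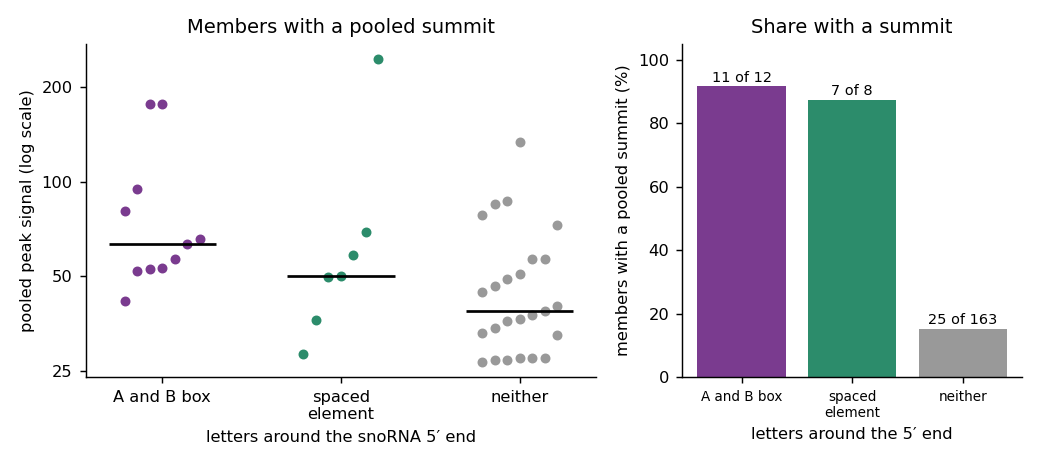
Hosted snoRNA genes by the letters around the 5′ end, from 150 bases before to 50 bases after it (inside the gene at C51F7.4). The left panel gives the pooled peak signal (log scale) of each gene with a pooled summit, with black lines at medians of 63.2, 50.3 and 38.9, and the right panel gives the share of genes with a pooled summit, 11 of 12 with both boxes, 7 of 8 with the spaced element and 25 of 163 with neither.

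Of the 163 members with neither pattern, 25 (15.3%) had a pooled summit and 5 an IDR summit, with a median pooled signal of 38.9. All 5 carried an A box without an exact B box, and these were F38E11.14, C27H6.5, F19H8.6, C10C6.8 and C14C10.8. Where the B box was allowed 1 mismatch, 4 of them, all but C14C10.8, held a B box after the A box. With that allowance 23 members (12.6%) held both boxes, beside 14.7% of unhosted snoRNA genes and 0.679% of intron windows. Of these carriers, a pooled summit lay at 19 of the 23 members (82.6%). The same held for 17 of the 24 unhosted genes (70.8%) and 17 of the 280 intron windows (6.07%).

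Taking an A box of any kind or the element together, 38 members (20.8%) carried at least 1 of them. They held 28 of the 43 pooled summits and all 14 IDR members. The remaining 145 members had 15 pooled summits (10.3%) and 0 IDR summits, and their highest pooled signal was 56.7, at F39B2.14 in tmem-107. Of intron windows 4.10% carried an A box or the element, and 3.78% of those had a pooled summit, close to the 3.39% of all intron windows. Among unhosted snoRNA genes 46 carried the letters, with 28 pooled and 15 IDR summits, and 7 IDR summits lay at genes without them. The A box was chosen from the top members, so the count of 14 in hosted genes is no independent evidence.

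Each letter was also searched on the other strand. The A box was on the snoRNA strand at 31 members and on the reverse strand at 12, and the B box at 22 and 3. In intron windows, the A box was on the gene strand in 3.96% and on the reverse strand in 3.69%. The B box core GTTCGA, searched on both strands in the gene with 50 bases on each side, was found at 28 members (15.3%), of which 15 had a pooled summit, beside 15.3% of unhosted snoRNA genes, 6.96% of intron windows and 72.5% of tRNA genes. A run of TTTT, the letters at which RNA polymerase III ends transcripts, stood within 50 bases after 135 members (73.8%). It followed 65.0% of unhosted snoRNA genes and 61.7% of intron windows. Among members it followed 38 of the 43 with a pooled summit and 97 of the 140 without. These sets were not matched for the distance to the next exon, and the differences were not tested.

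The E-box, CANNTG, is the site that factors of the HLH-12 family bind. E-boxes lay within 50 bp of the pooled summit at 18 of the 43 members (41.9%), beside 32.6% of all nuclear pooled summits. The 43 members rest on 39 distinct summits, and the top-2 summit, which has an E-box, counts for each of its genes. The 32.6% counts each summit once. Of the 14 IDR members 5 had an E-box there, ZK994.7, F38E11.14, Y38F2AR.14, F11A10.9 and M106.6. An E-box was thus lacking near most of these summits, and the difference between the shares was not tested.

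The class of snoRNA was read from letters at the gene ends. An ACA that stood 2 to 4 bases before the 3′ end was found at 55 members (30.1%), beside 12.3% of unhosted snoRNA genes and 4.72% of intron windows. A C box (TGATGA) with up to 1 mismatch and a D box (CTGA) were found at 22 members (12.0%), beside 15.3% and 0.637%. Together 75 members had either, so most members could not be classed by these letters. The 55 ACA members had 15 pooled summits (27.3%), beside 23.5% of all members, and 1 IDR summit, at C10C6.8. The 22 members with C and D boxes had 9 pooled and 5 IDR summits. Among unhosted snoRNA genes, 20 with ACA had 8 pooled and 5 IDR summits, and 25 with C and D boxes had 16 and 10.

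Short genes had more of the strong summits. Of 48 members under 100 bases, 18 had a pooled summit and 9 an IDR summit. Of 135 members of 100 bases or more, 25 had a pooled and 5 an IDR summit. Of 45 unhosted snoRNA genes under 100 bases, 28 had a pooled and 17 an IDR summit, against 23 and 5 of 118 longer ones. The trait is thus not particular to hosted genes. Of the 10 members of highest signal, 7 were under 100 bases. The 55 ACA members had a median length of 133 bases and those with C and D boxes 85 bases, so length and class cannot be told apart here.

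The place of members in their hosts was compared between those with and without a pooled summit. The intron that holds the snoRNA had a median length of 334 bp (quartiles 253.5 and 605.5) for members with a pooled summit and 467 bp (229 and 2013) for those without. The next exon began a median of 61 bp (38 and 89) after the snoRNA 3′ end in the first group and 151 bp (53 and 862) in the other. The quartile ranges overlapped for both measures, and the differences were not tested. Clear of every exon lay 39 of the 43 members with a pooled summit and 104 of the 140 without.

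Most summits lay far from the promoter of the host. The snoRNA genes with a pooled summit started a median of 1861 bp after the host 5′ end, and the summit lay within 200 bp of that end at 1 member, F39B2.14 in tmem-107. A pooled summit within 200 bp of the host 5′ end was listed for 5 of the 43 members, F39B2.14 among them, and for 8 of the 140 others. These are counts of members, so the frm-7 end and, among the others, the cdc-48.1 end each count for both of their snoRNA genes. At frm-7 the summit near the host 5′ end had 30.3, against 177 at the snoRNA genes. Of the 43 summits 0 lay within 200 bp of a tRNA, snRNA, rRNA or microRNA gene.

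Hosts were grouped by gene name. Hosts with the rpl-, rps- or rla- names of cytosolic ribosomal protein genes held 19 members in 13 hosts. A pooled summit lay at 2 of these members, the rps-29 pair, which share it, and there were 0 IDR summits. Ribosomal protein genes under other names were not sought. Hosts with the eef-, eif-, iff-, ife-, ifg- or inf- names of translation factor genes held 5 members, 2 of them in eif-4A3. This group was set by name alone, and what each gene does was not checked. Of its members, F17C11.14 in the elongation factor gene eef-1G had a pooled signal of 40.3. The snoRNP protein gene nol-56 held 4 members, with 0 pooled summits and a replicate summit at K07C5.12 (13.6 in replicate 2) and K07C5.18 (19.2 in replicate 1). The other 155 members had 40 pooled summits (25.8%) and all 14 of the IDR list. Members in hosts with ribosomal protein or translation factor names and in nol-56 carried 0 A and B box pairs and 0 spaced elements.

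Several hosts held more than 1 snoRNA gene. In all, 23 hosts held 50 members, and a pooled summit lay at members of 4 of them: the frm-7 pair, the top-2 trio (K12D12.6, K12D12.7 and K12D12.8, 27.4), the rps-29 pair and F17C11.14 of eef-1G. In frm-7, top-2 and rps-29 the members shared 1 summit each, so these values are not separate observations. In the topoisomerase gene top-2 the shared summit was listed in replicate 2 (16.8) and not in replicate 1.

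By chromosome, a pooled summit lay at 14 of 36 members on V, 10 of 35 on II, 7 of 28 on IV, 7 of 38 on III, 5 of 36 on I and 0 of 10 on X. The IDR members were 6 on V, 4 on IV, 3 on II and 1 on I. These are counts of genes, so the shared summits of frm-7 on V, top-2 on II and rps-29 on III count for each of their genes. No share over all peaks or introns of each chromosome was computed, so the counts do not rank the chromosomes. The 10 members on X are too few to describe a share.

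The genes of the proteins that assemble with snoRNAs were looked at for a summit from 1000 bp upstream to 200 bp downstream of their 5′ end. Of 8 such genes, nol-58, a C/D core protein gene, had a pooled summit of 27.1 and nola-3, an H/ACA core protein gene, had a summit of 36.7. The lowest nuclear value in that list was 26.3. The methyltransferase gene fib-1, nol-56 and snu-13 of the C/D particle had none in the pooled list, and neither had the pseudouridine synthase gene dkc-1, garr-1 and Y48A6B.3 of the H/ACA particle. All 8 had 0 IDR summits, while 9.03% of 19973 protein-coding genes had a pooled and 0.365% an IDR summit there.

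Other small RNA classes, at the same distance, gave a scale for these shares. A pooled summit lay at 31.0% of snRNA genes and 10.7% of microRNA genes, and an IDR summit at 21.7% of tRNA genes, 9.30% of snRNA genes and 0.766% of microRNA genes. Hosted snoRNA genes, with 23.5% and 7.65%, lay below tRNA and snRNA genes and above microRNA genes in both lists, and these differences were not tested.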

How the data were processed

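Anti-GFP ChIP-seq of HLH-12-eGFP gave a relaxed peak list for each of 2 biological replicates, a relaxed list called on both together and an IDR-thresholded list. The signal of each peak, as the peak caller wrote it, and the distance of its summit from the peak start were deposited by the authors. Per the listings deposited with the peaks, each relaxed list was made from alignments and a control, in builds ce11 and ce10. The ce11 lists were used. Aligner, peak caller and how reads with several matches were handled were not given in the sources used here. Alignments, signal tracks and the control were not analysed here, so read depth is unknown.

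Peaks on the nuclear chromosomes were joined to the Ensembl annotation of WBcel235 and letters were read from the RefSeq genome of that assembly, with Python 3.11.15, pandas 2.3.3, numpy 2.4.6, scipy 1.17.1 and matplotlib 3.10.9. A summit counted for a gene when it lay within 200 bp of it, and the highest signal was kept. Some snoRNA genes share a summit. The distance rule was run on simulated summits, all placed within 200 bp of a member. This checks that the code finds them and cannot show false hits. Members, host groups and lists were chosen with earlier results of these data known. The A box, the spaced element and the pairing of boxes were chosen after the flanks of high-signal members were read, so no count that uses them is a test.

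Genes were named by a rule: every member with an IDR summit, the 20 members of highest pooled signal, members of highest mean replicate signal without a pooled summit (5 were sought, and 2 had both replicate values), the 3 of lowest pooled signal, their hosts and the snoRNP protein genes. Others named stand for a count of few members or an extreme, and were chosen after their values were seen. Alternatives were other summit distances, the nearest gene alone, members clear of exons, the stronger peaks of each list (those above its median signal), each replicate alone and other letter searches.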

Additional observations from a re-analysis of the deposited data

How the results depend on the processing

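Of 56 values recomputed under the alternatives, 49 stayed within 1.5 times the count given, or within the replicate spread of 5.35 for signals and 7.78 bp for summit places, and 7 moved. The spread for signals is the median SD between replicates at a member, on the scale of 1 replicate. That for places is the SD of the median summit places of replicates 1 and 2. Neither is the spread of a pooled median, so both limits are a convention. With summits up to 500 bp away, members with a summit in both replicate lists numbered 56, against 36, the median pooled signal became 39.6 and the median summit place 5.5 bp. The B box core was found at 12 members in the gene body alone, against 28 with 50 bases on each side. Among members with C and D box or ACA letters, an alternative chosen after seeing the data, 23 had a pooled summit. With as many peaks as the pooled list taken from 1 replicate alone, the median signal lay between 24.5 without replicate 1 and 28.6 without replicate 2, on the scale of 1 replicate, members with a summit numbered 39 under both, and the median summit place ran from -7 to 0 bp. With as many peaks as the IDR list, members ran from 15 to 16, against 14. With as many peaks as the pooled list, unhosted snoRNA genes with a summit ran from 43 to 48, against 51. Counting distinct summits gave 39 pooled and 13 IDR. A shorter flank window, or GTTCGA as the B box, left 10 members with both boxes and a pooled summit, against 11, and 7 with the spaced element. No paired analysis was possible because the series has 1 group. Depth is unknown, so a member without a listed summit is not shown to lack signal.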
